A study of Mus musculus with 12 samples.

Results

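A set of 37 genes of macrophages and foam cells was examined in the thoracic aorta of atherosclerotic mice, with and without stimulation of the alpha 7 nicotinic acetylcholine receptor (α7nAChR). The genes were taken by symbol from a table of raw counts for 25284 genes, and all 37 were present and passed the filter on low counts. RNA of the aorta was sequenced from 12 male ApoE-/- mice, 6 in each group, to ask how stimulation of the receptor changes transcription in the atherosclerotic vessel. All 12 mice lacked apolipoprotein E, were fed a high-fat diet and carried subcutaneous osmotic minipumps from 10 to 18 weeks of age. The pumps of 6 mice delivered AZ6983, an agonist of α7nAChR, over these 8 weeks at a daily dose of 50 µmol per kg (mice A1 to A6), and those of the 6 controls delivered vehicle, cyclodextrin in saline (mice C1 to C6). Each library came from 1 whole thoracic aorta with no sorting of cells, and genes of brown fat, white fat and T cells were also counted in every mouse. A lower count may come from fewer cells of a type, less RNA per cell or more RNA of other tissue. These cannot be told apart.

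Macrophages of the artery come from self-renewing resident cells, which lie mostly in the adventitia, and from blood monocytes that enter the intima when lipoproteins collect there. Macrophages that take up much lipid become foam cells, and in mouse plaques these carry TREM2, a receptor for lipids and apoptotic cells, GPNMB, a glycoprotein of lysosomes, and FABP5, a carrier of fatty acids. Resident cells are known for scavenging receptors such as MRC1, whereas newly arrived monocytes carry the surface protein LY6C2 and the chemokine receptor CCR2. The 4 resident genes (F13a1, Mrc1, Folr2, Cbr2), 3 foamy genes (Trem2, Gpnmb, Fabp5) and 3 monocyte genes (Ly6c2, Ccr2, Plac8) were treated apart from the other 27 members.

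Counts on genes were 23810036 to 35864666 per mouse. A5 stood apart, with 30.2% of its counts on its 10 most counted genes against 16.9% to 21.6% in controls, and A4 held a sum of 499.9 CPM (counts scaled to a common library size, with TMM normalization) over 10 listed T cell genes against at most 41.8 CPM in any control. Reads on no gene were 8.02% to 12.7% of reads in controls and 11.2% to 14.9% in AZ6983 mice. Apoe, the gene disrupted in this strain, had 117 to 306 counts in controls and 214 to 311 in treated mice, giving a log2 fold change of 0.25 (SE 0.198, adjusted p = 0.649). Mice with an intact gene were not analysed here, so these counts show only that the groups overlapped.

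None of the macrophage genes differed between the groups at 10% FDR. By edgeR's quasi-likelihood test 0 of 37 members passed, beside 0% of all 15857 genes tested, and the adjusted p of members was 0.448 to 0.988. At an unadjusted p under 0.05, 2 members were higher in AZ6983 mice (Ly6c2 and Maf, 5.41% of members), where 7.38% of all genes were, and 0 were lower, where 2.81% of all genes were. DESeq2 run on every gene also passed 0 members, with a lowest adjusted p of 0.209. It gave an adjusted p to 17592 genes, of which 0.523% passed. In that fit 2 members were under 0.05 unadjusted, beside 10.5% of the 17592 genes. Limma-voom passed 0 members and 0% of all genes, with 3 members under 0.05 unadjusted, beside 9.54% of all genes. The CPM ranges of the groups overlapped for all 37 members, whereas they did not overlap for 0.41% of all genes.

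The log2 fold change of AZ6983 against control was negative in 25 members and positive in 12, with a median of -0.09, beside a median of 0.01 and 47.6% negative among all genes. It lay within 0.2 of zero in 25 members. The estimates farthest from zero were those of Ly6c2 at 0.93, Gpnmb at -0.75, Itgax at -0.68, Clec7a at -0.63 and Trem2 at -0.41. The plot of fold changes with their intervals shows that Gpnmb, Itgax, Clec7a and Trem2 had the widest intervals, and that F13a1, Mrc1 and Folr2 were among the genes with the narrowest.

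**Figure D1:**
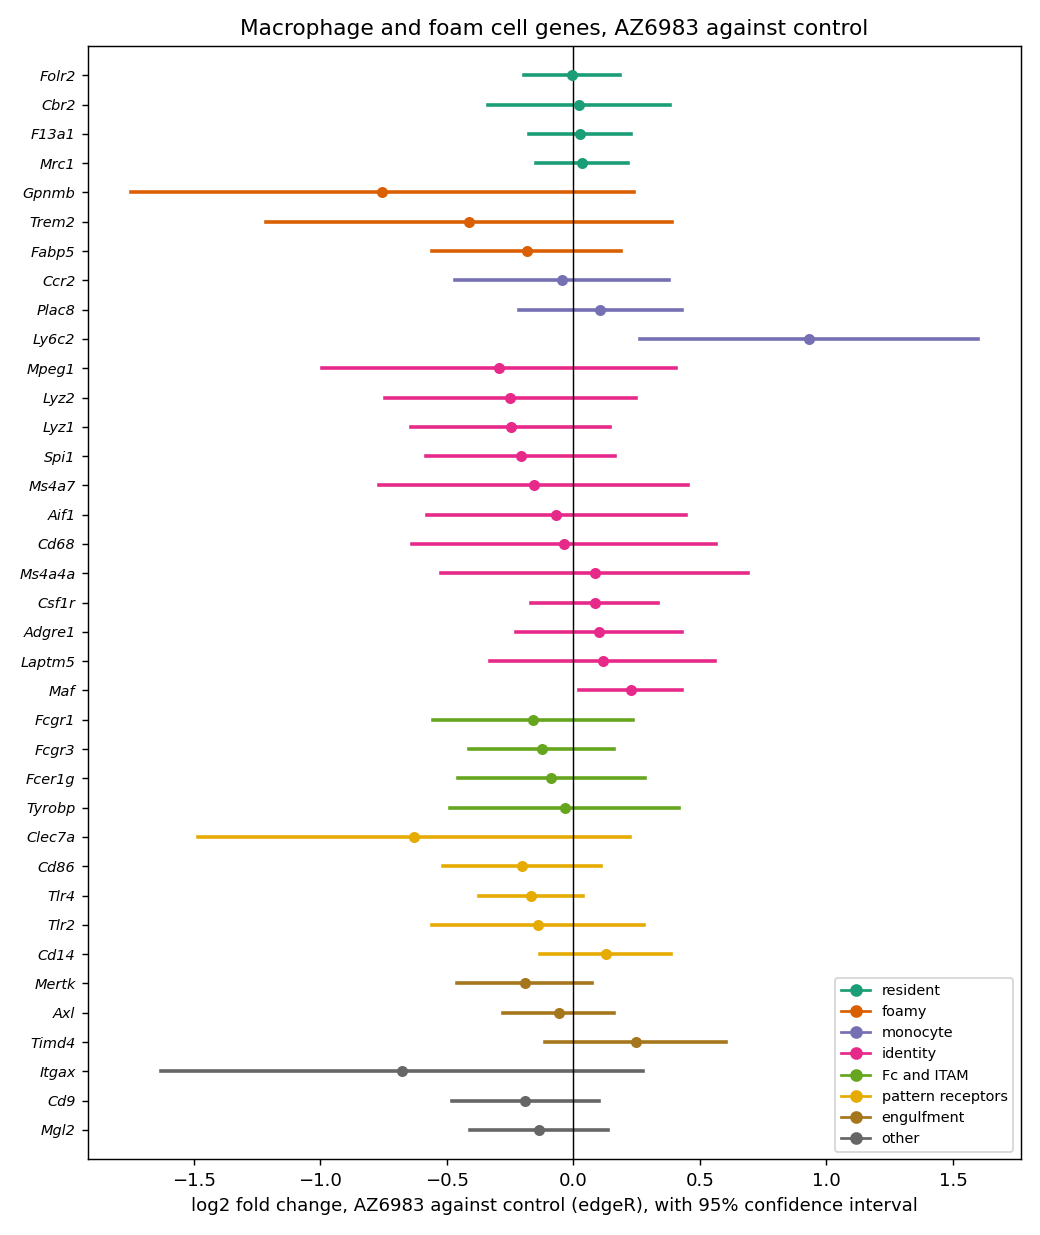
Log2 fold change of AZ6983 against control (x axis) for each of the 37 members (y axis, coloured by role), as points with the 95% confidence interval of the edgeR fit over 6 mice in each group. The intervals of Ly6c2 (0.27 to 1.60) and Maf (0.02 to 0.43) lie above zero before adjustment for multiple tests, and all other intervals include zero.

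The estimates of the 4 resident genes lay close to zero, and the intervals of F13a1, Mrc1 and Folr2 were among the narrowest of the members. F13a1 (chr13:36867178-37050244, minus strand of mm10), which encodes the A subunit of coagulation factor XIII, was 148, 162 and 180.3 CPM (lowest, median, highest) in controls and 133, 166 and 208 CPM in AZ6983 mice. The highest and the lowest of all mice, A3 and A5, were both treated, and the controls lay between them. Its log2 fold change was 0.03 (SE 0.0936, adjusted p = 0.933), with a 95% interval of -0.18 to 0.23.

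Mrc1 (chr2:14229392-14332057, plus strand), the mannose receptor, was 158, 171 and 188 CPM (lowest, median, highest) in controls and 148, 179 and 195 CPM in AZ6983 mice. The AZ6983 mice fell on both sides of the controls, 3 above the highest and 2 below the lowest. The log2 fold change of Mrc1 was 0.03 (SE 0.0835, adjusted p = 0.901), with an interval of -0.15 to 0.21. Folr2 (chr7:101839988-101857194, minus strand), which encodes folate receptor beta, was 22.0, 22.9 and 26.8 CPM (lowest, median, highest) in controls and 19.2, 23.6 and 28.4 CPM in AZ6983 mice, giving a log2 fold change of -0.01 (SE 0.088, adjusted p = 0.988) and an interval of -0.20 to 0.18. A3 was again the highest and A5 the lowest mouse. Cbr2 (chr11:120729489-120732114, minus strand), a carbonyl reductase, was the most variable of the 4 and was 99.6, 127 and 153 CPM (lowest, median, highest) in controls and 79.8, 129 and 159 CPM in AZ6983 mice. A5 lay below all controls and A1 and A3 lay above them. The log2 fold change of Cbr2 was 0.02 (SE 0.167, adjusted p = 0.971), with an interval of -0.34 to 0.38. Over the 4 resident genes the median log2 fold change was 0.02, and the highest mouse was 1.32 to 1.99 times the lowest.

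**Figure D2:**
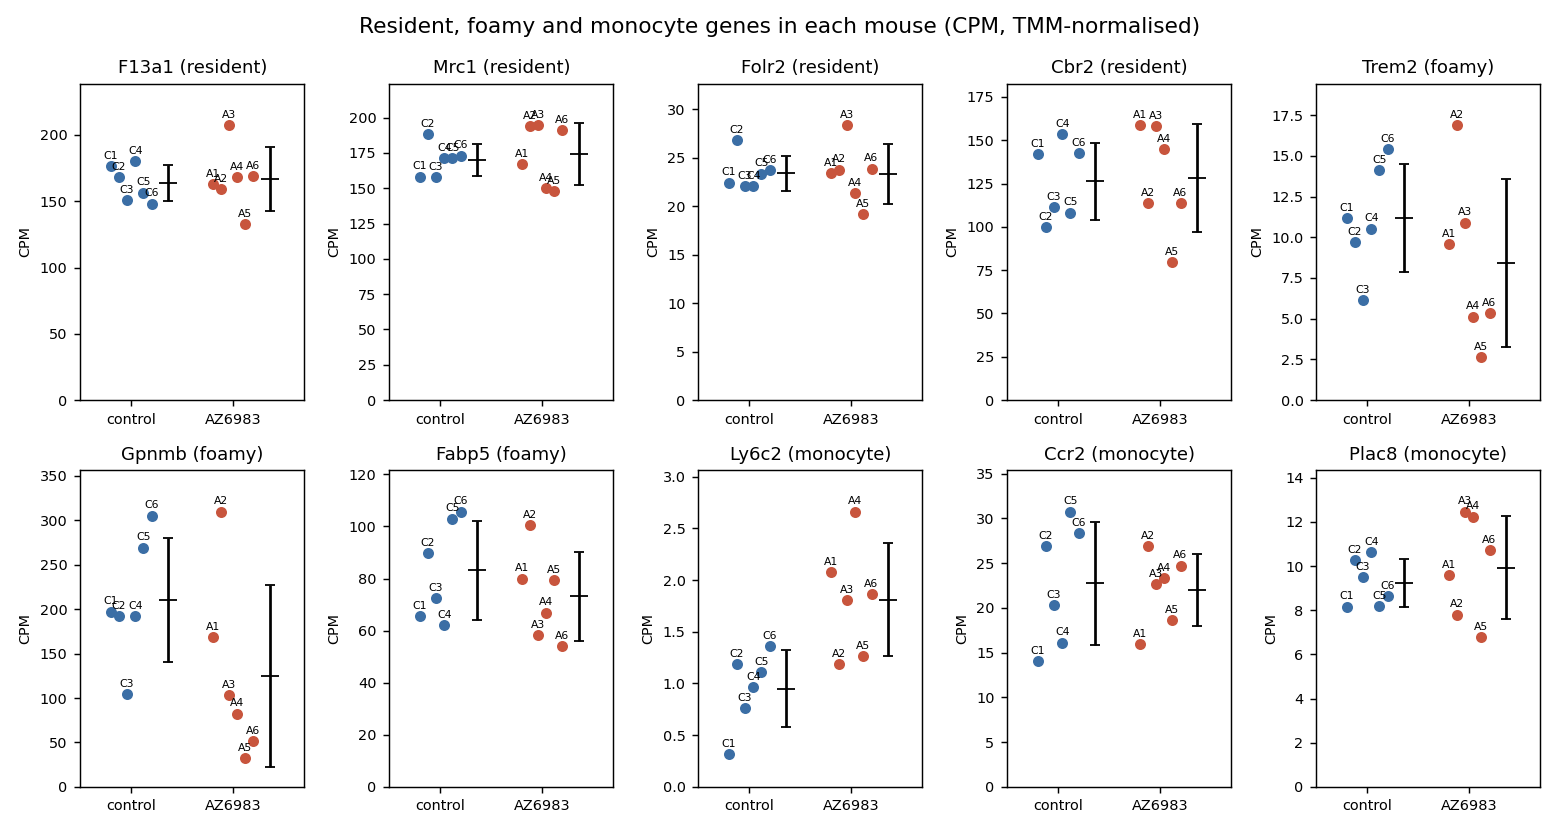
CPM (y axis, from 0) of the 4 resident, 3 foamy and 3 monocyte genes in each mouse, with control mice in blue and AZ6983 mice in red, and black bars for the mean and SD of 6 mice. Mice of the groups lie over each other for the resident genes, A2 stands with C5 and C6 at the top of the foamy genes, and 4 of 6 AZ6983 mice lie above every control for Ly6c2.

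The foamy genes had negative estimates, of which none passed the test, and Gpnmb and Trem2 varied more between mice than any resident gene. Gpnmb (chr6:49036546-49070929, plus strand) was 104, 195 and 305 CPM (lowest, median, highest) in controls and 32.4, 92.7 and 309.7 CPM in AZ6983 mice. In 5 treated mice it was 32.4, 51.9, 82.6, 103 and 168 CPM (A5, A6, A4, A3 and A1), and in the other, A2, it was 309.7. In all, 4 of the 6 AZ6983 mice lay below the lowest control, C3, and A2 lay above the highest, C6. The log2 fold change of Gpnmb was -0.75 (SE 0.46, adjusted p = 0.563), with a 95% interval of -1.75 to 0.24.

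Trem2 (chr17:48346401-48354147, plus strand) was 6.14, 10.9 and 15.4 CPM (lowest, median, highest) in controls and 2.66, 7.46 and 16.9 CPM in AZ6983 mice. A4, A5 and A6 were below every control and A2 was above every control. Its log2 fold change was -0.41 (SE 0.371, adjusted p = 0.686), with an interval of -1.21 to 0.39. Counts of Trem2 were 178 to 453 in controls and 65 to 470 in AZ6983 mice. Fabp5 (chr3:10012548-10016607, plus strand) was 62.1, 81.2 and 106 CPM (lowest, median, highest) in controls and 53.9, 73.1 and 101 CPM in AZ6983 mice. A3 and A6 lay below the lowest control and none above the highest. The log2 fold change of Fabp5 was -0.18 (SE 0.173, adjusted p = 0.699), with an interval of -0.56 to 0.19.

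Over the 3 foamy genes the median log2 fold change was -0.41, and the highest mouse was 1.96 to 9.57 times the lowest. The SD of log2 CPM within groups lay at percentiles 71.4 to 95.8 of all genes tested for foamy genes and at percentiles 29.1 to 70.7 for resident genes. The foamy estimates moved with single mice. Without A2, Gpnmb had a log2 fold change of -1.27 (adjusted p = 0.513) and Trem2 one of -0.75 (adjusted p = 0.569). A2 was the highest mouse for both genes, so lower estimates without it follow from that choice. In that fit 8 members had an unadjusted p under 0.05 in the lower direction, beside 3.25% of all genes. Leaving out any other mouse gave at most 1 such member, and the members share these mice. Without A2, 0 members and 0% of all genes passed 10% FDR. With a covariate for reads outside genes, the foamy median was -0.73, from -1.24 for Gpnmb, -0.73 for Trem2 and -0.46 for Fabp5 (adjusted p = 0.9998 for each). This covariate had a median of 12.4% in AZ6983 mice (11.2% to 14.9%, highest in A2) and 10.1% in controls (8.02% to 12.7%). Only A2 and A6 exceeded every control. The covariate cannot be fully separated from treatment. Without A5, the estimate of Trem2 was -0.24 and that of Gpnmb -0.57.

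Monocyte genes did not share a direction. Ly6c2 (chr15:75108158-75111970, minus strand), whose product marks inflammatory monocytes, was 0.314, 1.04 and 1.36 CPM (lowest, median, highest) in controls and 1.19, 1.83 and 2.66 CPM in AZ6983 mice. A1, A3, A4 and A6 lay above every control, while A2 and A5 lay within the range of the controls. Its log2 fold change was 0.93 (SE 0.308, adjusted p = 0.448), with an interval of 0.27 to 1.60, and it was 0.75 to 1.06 with any 1 mouse left out. Only 9 to 40 counts per mouse lay behind the control values and 31 to 100 behind the treated ones, and Ly6c2 is similar in sequence to its neighbour Ly6c1, so how the reads were divided between them is uncertain.

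Ccr2 (chr9:124101950-124113557, plus strand), the receptor for the chemokine that draws monocytes from bone marrow into tissue, was 14.1, 23.6 and 30.8 CPM (lowest, median, highest) in controls and 16.0, 23.0 and 26.9 CPM in AZ6983 mice. All AZ6983 mice lay within the range of the controls. The log2 fold change of Ccr2 was -0.05 (SE 0.196, adjusted p = 0.95), with an interval of -0.47 to 0.38. Plac8 (chr5:100553725-100572245, minus strand), a small cysteine-rich protein abundant in monocytes and neutrophils, was 8.16, 9.06 and 10.6 CPM (lowest, median, highest) in controls and 6.78, 10.2 and 12.5 CPM in AZ6983 mice. A3, A4 and A6 were above the highest control and A2 and A5 below the lowest. Its log2 fold change was 0.11 (SE 0.149, adjusted p = 0.809). The median over the 3 monocyte genes was 0.11.

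Ly6c2 was the scarcest of these genes also per length. Divided by exonic length, the mean level of Ly6c2 in controls was 0.346 CPM per kb, against 3.36 for Ccr2 and 5.80 for Plac8. Gpnmb stood at 32.3 CPM per kb in controls, Mrc1 at 26.7 and Trem2 at 2.26. The most abundant members per length were Lyz2 at 389, Cd9 at 123 and Cbr2 at 95.1 CPM per kb, and Cd9, a tetraspanin, is not confined to macrophages.

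Genes that mark macrophages of any kind showed that the lineage was detected in every aorta and gave no difference at 10% FDR. Adgre1, which encodes the surface marker F4/80, was 29.7, 41.3 and 50.7 CPM (lowest, median, highest) in controls and 32.4, 42.3 and 57.5 CPM in AZ6983 mice, giving a log2 fold change of 0.10 (SE 0.152, adjusted p = 0.825). Csf1r, the receptor for the growth factor on which macrophages depend, was 86.3, 101 and 132 CPM (lowest, median, highest) in controls and 92.3, 112 and 134 CPM in AZ6983 mice, giving a log2 fold change of 0.09 (SE 0.116, adjusted p = 0.804). The AZ6983 and control mice overlapped for both, and their intervals were -0.23 to 0.43 and -0.17 to 0.34. Cd68, a glycoprotein of late endosomes, was 15.6, 23.0 and 31.6 CPM (lowest, median, highest) in controls and 11.9, 23.3 and 34.4 CPM in AZ6983 mice, giving a log2 fold change of -0.04 (SE 0.278, adjusted p = 0.972). Cd68 was above the highest control in A1 and A2 and below the lowest in 2 AZ6983 mice.

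Lyz2, the lysozyme of macrophages and neutrophils, was 321, 504 and 713 CPM (lowest, median, highest) in controls and 250.4, 429.7 and 628 CPM in AZ6983 mice, giving a log2 fold change of -0.25 (SE 0.229, adjusted p = 0.694). Lyz1, its neighbour on chromosome 10, was 6.07, 6.95 and 9.41 CPM (lowest, median, highest) in controls and 3.53, 6.30 and 7.87 CPM in AZ6983 mice, giving a log2 fold change of -0.25 (SE 0.182, adjusted p = 0.616). The lowest mouse was A5 for Lyz2 but A3 for Lyz1, and the sequences are so alike that reads may have been lost or divided between them. Spi1, which encodes PU.1, a transcription factor that myeloid cells need, was 5.24, 7.20 and 10.6 CPM (lowest, median, highest) in controls and 4.25, 6.56 and 8.02 CPM in AZ6983 mice, giving a log2 fold change of -0.21 (SE 0.173, adjusted p = 0.66). Only A5 was below the lowest control. Maf, a transcription factor of resident macrophages that endothelial and other cells also express, was 35.8, 42.7 and 51.2 CPM (lowest, median, highest) in controls and 43.6, 49.4 and 55.5 CPM in AZ6983 mice. A2 and A6 lay above the highest control and none lay below the lowest, and the log2 fold change of Maf was 0.23 (SE 0.0933, adjusted p = 0.466).

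The other 5 of these 12 genes had log2 fold changes from -0.29 to 0.12. Mpeg1, the pore-forming protein perforin-2 of phagocytes, ranged over 54.6 to 143 CPM in controls and 39.8 to 152 CPM in AZ6983 mice, and Laptm5, a lysosomal membrane protein of blood cells, over 30.3 to 62.4 CPM in controls and 31.1 to 74.6 CPM in AZ6983 mice. Laptm5 was highest in A4, the mouse with the T cell genes, and lymphocytes express it too. Aif1, an actin-binding protein of macrophages, and the membrane proteins Ms4a7 and Ms4a4a had log2 fold changes of -0.07, -0.16 and 0.08.

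The genes of Fc receptors and their signalling chains had estimates just below zero. Tyrobp, the adaptor through which TREM2 signals, was 20.4, 28.6 and 34.8 CPM (lowest, median, highest) in controls and 13.7, 27.8 and 39.2 CPM in AZ6983 mice, giving a log2 fold change of -0.03 (SE 0.209, adjusted p = 0.966). Fcer1g, the chain shared by Fc receptors, was 10.8, 14.2 and 18.2 CPM (lowest, median, highest) in controls and 9.15, 12.9 and 18.3 CPM in AZ6983 mice, giving a log2 fold change of -0.09 (SE 0.171, adjusted p = 0.875). A2 was the highest mouse and A5 the lowest for both. The same held for the IgG receptors Fcgr1 and Fcgr3, whose log2 fold changes were -0.16 (adjusted p = 0.761) and -0.12 (adjusted p = 0.736). Fcgr1 lay between 7.71 and 8.74 CPM in the controls, yet between 4.33 and 11.6 CPM in AZ6983 mice. Fcgr3 is similar in sequence to Fcgr2b, so its counts are uncertain.

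Among receptors for microbial products and genes of activation, 4 of 5 estimates were negative. Tlr4, the receptor for lipopolysaccharide, and Tlr2, the receptor for bacterial lipoproteins, had log2 fold changes of -0.17 (adjusted p = 0.547) and -0.14 (adjusted p = 0.809), and Cd14, their co-receptor, one of 0.13 (adjusted p = 0.698). Cd86, which co-stimulates T cells, had one of -0.20 (adjusted p = 0.609). Clec7a, the β-glucan receptor dectin-1, varied most and was 12.6, 18.9 and 41.9 CPM (lowest, median, highest) in controls and 5.80, 14.6 and 28.3 CPM in AZ6983 mice. C5 and C6 were the highest mice for Clec7a and A5 and A6 lay below every control, with a log2 fold change of -0.63 (SE 0.395, adjusted p = 0.574). Clec7a is described in more detail because its values were seen to vary between mice.

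Genes for engulfing dying cells gave no common direction. Mertk and Axl, receptor tyrosine kinases that bind apoptotic cells through bridging proteins, had log2 fold changes of -0.19 (adjusted p = 0.581) and -0.06 (adjusted p = 0.857). Timd4, a receptor for phosphatidylserine on resident macrophages, had one of 0.25 (adjusted p = 0.589) and was scarce, with at most 113 counts in any mouse. Of the remaining 3 members, Mgl2, a lectin of alternatively activated macrophages and dendritic cells, and the tetraspanin Cd9 had log2 fold changes of -0.14 and -0.19. Itgax, the integrin chain CD11c of dendritic cells and foam cells, was 6.93, 13.2 and 25.1 CPM (lowest, median, highest) in controls and 4.49, 7.22 and 26.6 CPM in AZ6983 mice, giving a log2 fold change of -0.68 (SE 0.44, adjusted p = 0.582). A2, C6 and C5 held 26.6, 25.1 and 24.8 CPM and every other mouse at most 13.5, so Itgax too was singled out after its values were seen. Without A2 the log2 fold change of Itgax was -1.28 (adjusted p = 0.427).

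**Figure D3:**
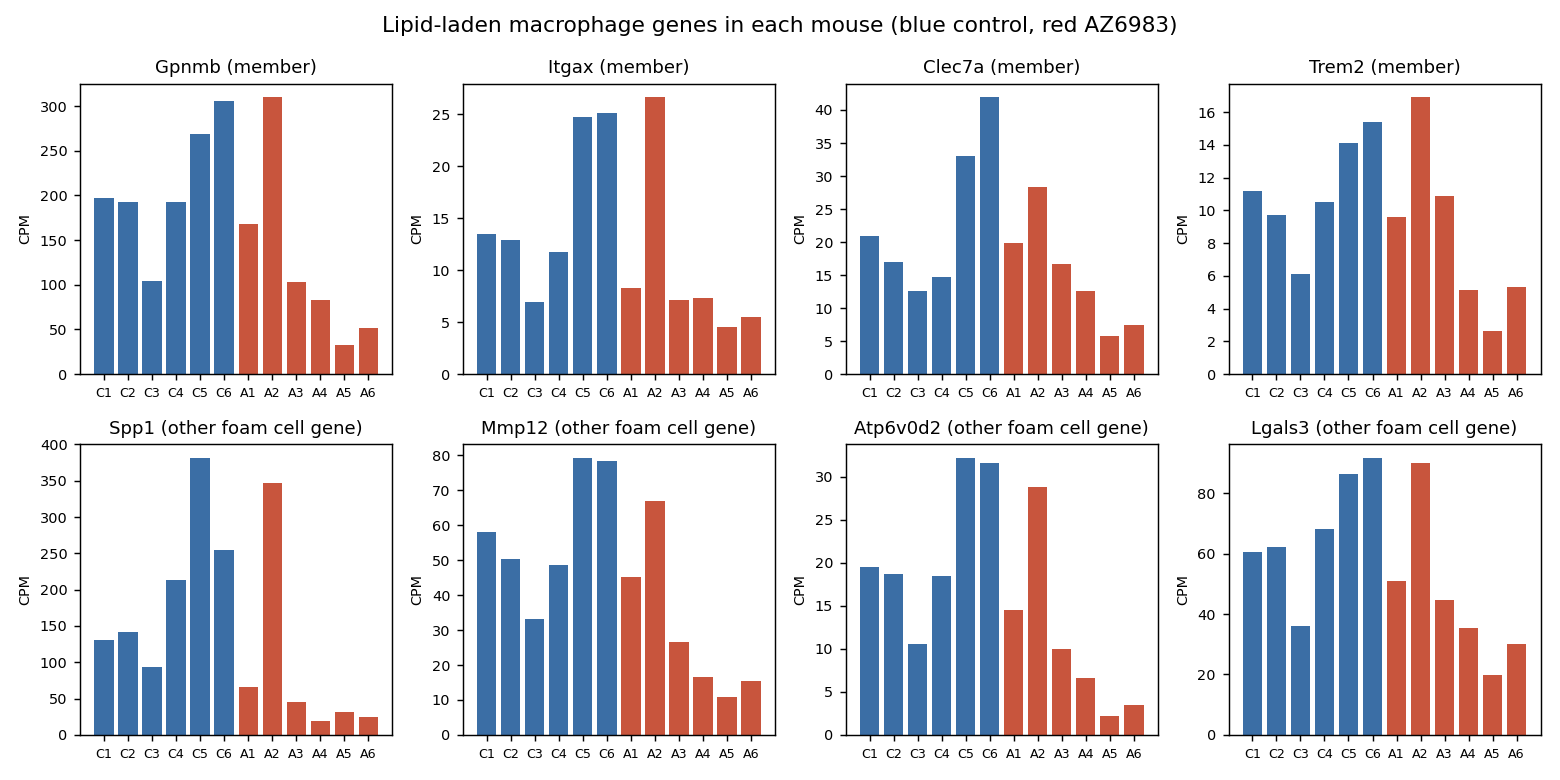
CPM (y axis, from 0) in each of 12 mice (x axis, controls in blue, AZ6983 in red) of 4 members and 4 other foam cell genes. C5, C6 and A2 are the 3 highest mice in all 8 plots, and A5 is the lowest mouse in every plot but that of Spp1. The genes were chosen after their values were seen, and not all listed foam cell genes shared this order. A5 was the highest mouse for Cd36 (2000 CPM), Fabp4 (4311 CPM), Lpl (2132 CPM) and Plin2 (621 CPM), which are not plotted.

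Members tended to be high in the same mice of both groups (A2, C5 and C6), whereas the mouse most often lowest, A5, was treated. A5 was the lowest mouse in 26 of 37 members, whereas it was the lowest in 21.5% of all genes. A2 was the highest mouse in 11 members and in 12.6% of all genes, and C6 in 8 members and in 9.55% of all genes. The trio A2, C5 and C6, noticed in these data, held the 3 highest values in 13 members (35.1%) but in 0.883% of all genes. The 13 genes were Trem2, Gpnmb, Fabp5, Ccr2, Lyz2, Aif1, Mpeg1, Ms4a7, Spi1, Fcgr1, Cd86, Clec7a and Itgax, among which all 3 foamy genes and no resident gene were found. A4, A5 and A6, also noticed in these data, held the 3 lowest values in 4 of 37 members (Trem2, Gpnmb, Ms4a7 and Tlr4) and in 1.78% of all genes. Both trios were picked from these same values, so their shares beside those of all genes describe the members and test nothing.

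Averaged over the genes of a set and centred on the 12 mice, the foamy genes ran from -0.33 (C3) to 0.81 (C6) in controls and from -1.24 (A5) to 0.84 (A2) in AZ6983 mice on the log2 scale. In A5 that mean rested on Gpnmb (32.4 CPM) and Trem2 (2.66 CPM), each the lowest of all mice. Fabp5 in A5 was 79.3 CPM, within the control range of 62.1 to 106 CPM. The resident genes ran from -0.12 to 0.09 in controls and from -0.36 (A5) to 0.29 (A3) in AZ6983 mice. A2 and C6, with the highest foamy values, had resident values of 0.01 and 0.02, near the mean. A6 and A4 had foamy values of -0.87 and -0.56 beside resident values of 0.03 and -0.02. The monocyte genes were lowest in C1 at -0.87 and highest in A4 at 0.51, and C1 had the fewest reads of Ly6c2.

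**Figure D4:**
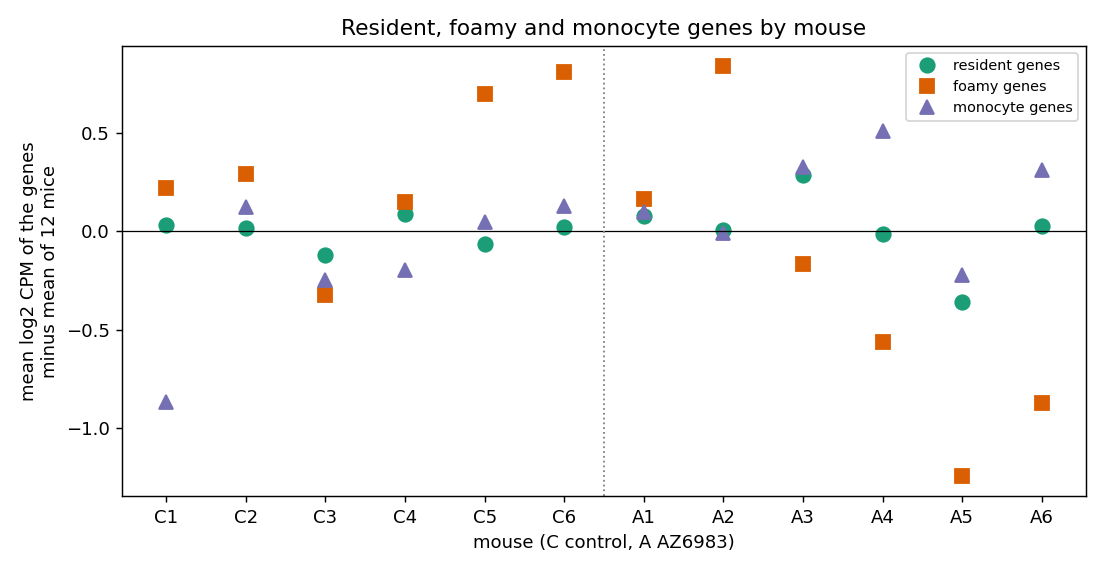
Mean log2 CPM of the 4 resident, 3 foamy and 3 monocyte genes in each mouse (x axis), after subtracting each gene's mean over 12 mice (y axis, log2 scale). Foamy genes (orange squares) spread from -1.24 in A5 to 0.84 in A2, and resident genes (green circles) stay between -0.36 and 0.29.

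**Figure D5:**
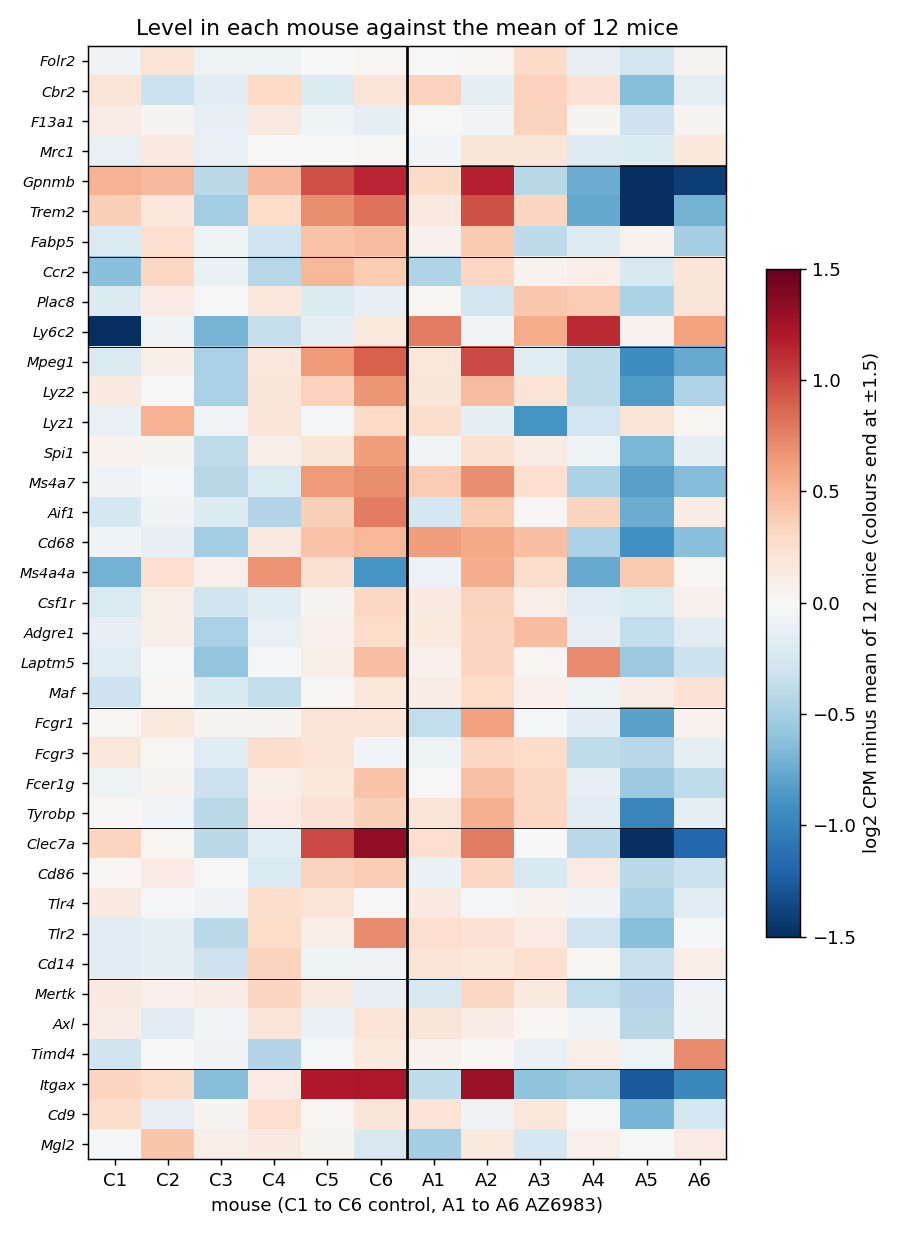
Log2 CPM of the 37 members (rows, by role) in each mouse (columns, controls on the left of the black line), minus the gene's mean over 12 mice, with red for higher and blue for lower and colours ending at 1.5 in each direction. The columns of C5, C6 and A2 are red and that of A5 is blue over many rows, while the resident genes at the top are pale.

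Further macrophage genes from lists outside the 37 members passed 10% FDR in none of the lists by edgeR. The median log2 fold change of 12 other resident macrophage genes tested was -0.02. Of these 12, 2 had an unadjusted p under 0.05, both higher in AZ6983 mice, beside 7.38% of all genes. These were Vsig4, a complement receptor of tissue macrophages, at 0.49 (SE 0.178, adjusted p = 0.45) and Fcna, a ficolin that binds sugars of microbes, at 0.63 (SE 0.24, adjusted p = 0.45). Vsig4 ranged over 2.57 to 2.81 CPM in controls and 2.08 to 4.79 CPM in AZ6983 mice and Fcna over 10.1 to 14.8 CPM in controls and 10.7 to 30.3 CPM in AZ6983 mice. The scavenger receptor gene Stab1 had the next lowest p, at 0.23 (SE 0.11, adjusted p = 0.498).

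Of 15 other foam cell genes, 13 had a negative log2 fold change, with a median of -0.20. At an unadjusted p under 0.05, 1 was lower and 1 higher, beside 2.81% and 7.38% of all genes. The lower of the 2 with an unadjusted p under 0.05 was Mmp12, the elastase of macrophages, which was 33.1, 54.3 and 79.2 CPM (lowest, median, highest) in controls and 10.7, 21.5 and 66.9 CPM in AZ6983 mice, and its log2 fold change was -0.94 (SE 0.405, adjusted p = 0.475). Mmp12 was below the lowest control in A3, A4, A5 and A6. The other was Abcg1, which exports cholesterol to high-density lipoprotein, with 35.1 to 63.0 CPM in controls and 45.4 to 90.8 CPM in AZ6983 mice and a log2 fold change of 0.45 (SE 0.171, adjusted p = 0.45). Ctsd, a lysosomal protease that most cells make, had one of -0.21 (SE 0.103, adjusted p = 0.505). Spp1, osteopontin, taken up after its values were seen, was 93.4, 177 and 381 CPM (lowest, median, highest) in controls and 18.5, 38.3 and 347 CPM in AZ6983 mice. Its log2 fold change was -1.19 (SE 0.677, adjusted p = 0.543), with A2 near the highest controls and the other 5 AZ6983 mice below the lowest.

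The median log2 fold change of 8 other monocyte genes was 0.02. Chil3, a secreted lectin of monocytes, neutrophils and activated macrophages, ranged over 1.59 to 5.99 CPM in controls and 2.12 to 8.99 CPM in AZ6983 mice and had a log2 fold change of 0.77 (SE 0.362, adjusted p = 0.497). None of 23 genes of myeloid signalling had an unadjusted p under 0.05 (median 0.13). Among 16 genes of transcription factors and growth factors 1 did, beside 2.81% of all genes in the lower direction. It was Mitf, a regulator of lysosomal genes, at -0.22 (SE 0.0857, adjusted p = 0.45). None of 7 dendritic cell genes had an unadjusted p under 0.05 (median -0.02).

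Markers of other cells moved with some of these results. All 9 neutrophil genes tested had an unadjusted p under 0.05 with a higher level in AZ6983 mice, beside 7.38% of all genes. None passed 10% FDR by edgeR, whereas the study, with DESeq2 at 10% FDR, listed Ltf, Ngp and Camp as higher. The sum over all 12 neutrophil genes listed was 20.9 to 62.4 CPM in controls and 38.0 to 264 CPM in AZ6983 mice. This sum was above every control in A1 (99.4 CPM), A3 (181.9), A4 (127.0), A6 (264) and A5 (65.5) and not in A2 (38.0), and the first 4 of these mice were those with Ly6c2 above every control. Among controls it was lowest in C5 and C6, at 22.0 and 20.9 CPM. Ly6c2 in these mice was 1.11 and 1.36 CPM, and C6 had the highest Ly6c2 of the controls. Neutrophils express Lyz2 and Plac8 too, and Mpo, Elane and Ly6g were too low to be tested. Of 9 T cell genes tested 8 had an unadjusted p under 0.05, all higher in AZ6983 mice, beside 7.38% of all genes. The sum over the 10 listed was 499.9 CPM in A4 and at most 40.5 CPM in any other AZ6983 mouse. A4 was also the highest mouse for Ly6c2, at 2.66 CPM. In A5, the lowest mouse of most members, 7 brown fat genes summed to 5929 CPM against 2769 to 4590 CPM in controls, and 7 smooth muscle genes to 10513 CPM against 13537 to 18084 CPM. The part of these cells in the values of the members was not tested.

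Promoters of a resident, a monocyte and 2 foamy genes are printed so that the sequence of genes that varied little and much between mice can be read side by side, with motifs of factors known in macrophages. Of the 37 members 28 had 1 or more entries, 35 promoters in all, in RefSeq (GRCm38.p6), each with 250 bases before the start of transcription and 50 after. The members without an entry were Fabp5, Spi1, Cd86, Tlr4, Cd14, Adgre1, Csf1r, Tyrobp and Maf. In all, 7 motifs were searched on both strands. The capitals below mark 2 of them, the core of sites for the myeloid factor PU.1 (GAGGAA) and the site for AP-1, a factor induced by many stimuli (TGAGTCA). The genes printed were chosen with their matches known. The entries lie at chr6:49036268-49036567 (plus strand) for Gpnmb, chr17:48346151-48346450 (plus) for Trem2, chr2:14229164-14229463 (plus) for Mrc1 and chr15:75111922-75112221 (minus) for the first of 2 starts of Ly6c2, 5′ to 3′.
Gpnmb: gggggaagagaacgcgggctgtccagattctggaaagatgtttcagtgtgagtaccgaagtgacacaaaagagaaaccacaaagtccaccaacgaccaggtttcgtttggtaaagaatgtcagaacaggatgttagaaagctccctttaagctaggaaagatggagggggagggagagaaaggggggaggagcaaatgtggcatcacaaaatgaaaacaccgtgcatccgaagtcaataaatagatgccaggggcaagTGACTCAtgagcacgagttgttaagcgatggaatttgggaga
Trem2: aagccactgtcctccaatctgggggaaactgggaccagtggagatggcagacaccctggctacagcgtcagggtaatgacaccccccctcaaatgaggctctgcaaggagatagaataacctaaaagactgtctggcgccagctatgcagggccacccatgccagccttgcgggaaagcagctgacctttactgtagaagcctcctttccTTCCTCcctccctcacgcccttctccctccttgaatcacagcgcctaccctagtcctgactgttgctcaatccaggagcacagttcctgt
Mrc1: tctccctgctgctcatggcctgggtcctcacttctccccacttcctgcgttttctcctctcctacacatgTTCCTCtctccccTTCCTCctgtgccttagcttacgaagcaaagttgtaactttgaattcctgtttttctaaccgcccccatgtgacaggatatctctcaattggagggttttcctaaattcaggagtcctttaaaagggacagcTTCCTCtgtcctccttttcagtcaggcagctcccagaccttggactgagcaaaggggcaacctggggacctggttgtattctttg
Ly6c2: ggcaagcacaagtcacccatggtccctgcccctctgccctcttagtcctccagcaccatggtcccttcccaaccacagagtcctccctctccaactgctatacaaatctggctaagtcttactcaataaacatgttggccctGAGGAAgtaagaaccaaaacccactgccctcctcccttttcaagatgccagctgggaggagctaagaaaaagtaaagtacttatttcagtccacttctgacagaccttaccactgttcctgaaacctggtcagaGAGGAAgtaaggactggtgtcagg
GAGGAA on either strand was found in 19 of the 35 member promoters (54.3%, 15 genes) and in 28.3% of all 32851 promoters. The Mrc1 promoter held 3 matches, that of Ly6c2 held 2 and that of Trem2 held 1. The AP-1 site was found in 4 member promoters (11.4%) and in 5.20% of all, and it is the 1 match in Gpnmb, on the minus strand. GGAAGT was found in 42.9% of member promoters against 23.8% of all, GAGGAAGT in 8.57% against 3.20%, CATGTG in 22.9% against 14.2% and TCACATG in 2.86% against 3.99%. CACGTG was found in 0 of 35, against 7.15% of all. GAGGAAGT contains both of the shorter purine motifs, so these matches overlap, and promoters of 1 gene with several starts can share bases. A match of letters describes the sequence and does not show that a factor is bound there.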

How the data were processed

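Stranded total RNA, depleted of ribosomal RNA, was prepared by the authors from the thoracic aorta of 12 mice and sequenced from both ends. The authors deposited raw counts per gene symbol, without normalization. The submitters' processing notes name CASAVA 1.8.2, STAR 2.5.2b, HTSeq 0.6.1p1 and the build mm10, without their roles, and the annotation is not given in the sources used here. Library sizes and tests did not use the 3 rows that name no gene. Those rows held reads on no gene (8.02% to 14.9% of reads per mouse), reads aligned to several places (18.1% to 23.2%) and ambiguous reads (0.606% to 0.698%). Libraries of this kind also hold unspliced RNA. Counts on genes of 23810036 to 35864666 per mouse set the precision, which is least for genes with few counts.

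Groups came from the labels. The column of A1 carries 3 of the 4 digits of its mouse number, which no other title contains. Columns end in a number from 1 to 12 of unstated meaning, and controls take 3 to 7 and 12, so any order it records is largely confounded with treatment. No library was a copy of another, since a chi-square of counts between 2 mice was at least 12.0 per degree of freedom over 66 pairs. The labels name no batch, litter or pairing.

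The whole table was fitted with edgeR 4.0.16 in R 4.3.3 (TMM, filterByExpr, quasi-likelihood test, no covariate), which tested 15857 genes, with Benjamini-Hochberg adjustment over them at 10% FDR, the threshold of the study. The standard error was taken as |log2 fold change| / √F, and intervals use the t quantile of the fit. Log2 CPM used a prior count of 2. Alternatives were DESeq2 1.42.0, limma-voom (limma 3.58.1), other scalings and filters, a covariate for the percent of reads that fell outside genes, and each mouse left out. The steps were also run on simulated counts, in which genes varied independently and no mouse stood apart. That run does not cover patterns like those of A2, A4 and A5. Positions and exonic lengths came from GENCODE M21, by symbol, and describe the whole gene.

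The members and lists were chosen with earlier results of these data known. The 10 resident, foamy and monocyte genes, members with an unadjusted p under 0.05 and Adgre1, Cd68, Csf1r, Lyz2, Lyz1, Tyrobp, Fcer1g and Spi1 were described singly, other members by counts and ranges, and at most 3 genes with the smallest p were named from each other macrophage list. The result of 1 gene of the other monocyte list is not reported here.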

Additional observations from a re-analysis of the deposited data

Results flagged for a closer look

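In 74 groups of 6 mice (37 genes in each treatment group), 3 had a mouse whose gap to the next passed Dixon's 95% limit in log2 CPM, and chance flags about 1 in 20 groups, or 3.7 of 74. All 3 lay in AZ6983 mice. Itgax in A2 was 4.74, above 2.19 to 3.07 in the other 5. Timd4 in A6 was 2.10, above 1.30 to 1.505 in the others. Cd14 in A5 was 2.9995, below 3.36 to 3.56 in the others.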

How the results depend on the processing

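In every alternative run, 0 members passed 10% FDR, and 0 passed 5% in the fit reported above. The members under an unadjusted p of 0.05 numbered 2 in the fit reported above, 1 with a filter at a mean of 50 counts (Ly6c2 is filtered out) and 4 with the percent of reads outside genes as a covariate, beside 10.2%, 9.68% and 2.95% of all genes tested in these fits. Those 4 were all lower (Ccr2 -0.57, Fcgr1, Itgax -1.57 and Mgl2), with a lowest adjusted p of 0.9998. The covariate itself had a median of 10.1% in controls and 12.4% in AZ6983 mice, so it is partly confounded with treatment. With this covariate the log2 fold changes of Mrc1 (-0.13), Adgre1 (-0.0177), Csf1r (-0.13), Ms4a4a (-0.22), Axl (0.0323), Timd4 (-0.0018) and Cd9 (0.0245) changed sign, and Ly6c2 and Maf stood at 0.75 and 0.02. Cbr2 changed sign with limma-voom (-0.0020) and without a filter (-0.0014), as did Folr2 with the filter at 50 counts (0.0018), both near zero. Other scalings and DESeq2 changed no direction of a member. With limma-voom Gpnmb had a log2 fold change of -1.07 (unadjusted p under 0.05, adjusted p = 0.511). The causes were not tested.

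With each mouse left out in turn, the count under 0.05 was 1 to 9 (2.70% to 24.3% of members), beside 6.52% to 14.0% of all genes. The count at 10% FDR was 0 to 0. The medians were -0.19 to -0.02 over all members, -0.0509 to 0.0612 over resident, -0.75 to -0.24 over foamy and 0.03 to 0.17 over monocyte genes. Leaving out a mouse changed the sign of 11 log2 fold changes, which ranged from -0.162 to 0.117 (Aif1), -0.0536 to 0.106 (Cbr2), -0.152 to 0.0485 (Ccr2), -0.180 to 0.081 (Cd68), -0.0503 to 0.0639 (F13a1), -0.0725 to 0.026 (Folr2), -0.0453 to 0.229 (Laptm5), -0.0139 to 0.0713 (Mrc1), -0.0466 to 0.254 (Ms4a4a), -0.234 to 0.0188 (Tlr2) and -0.173 to 0.086 (Tyrobp). The count of 9 (1 higher, 8 lower) came without A2, a fit in which 8.70% of all genes were under 0.05. The foamy median was -0.75 without A2 and -0.24 without A5. No paired analysis was possible because the labels give no number that mice of the groups share, and the replicate numbers used here only name the mice.

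The design limits what can be read. Over 6 mice in each group, the interval of Gpnmb (-1.75 to 0.24) spans both a large decrease and no change, so a p that misses the threshold does not show equal levels. The genes share libraries and mice, and counts over members are not independent. Total RNA of a whole vessel gives no count of cells.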
